A study of Homo sapiens with 19 samples.

Results

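In the chromatin of 786-O cells that re-expressed HIF-1α, 819 of the 5147 windows called for HIF-1α shared no base with a window called for HIF-1β or HIF-2α in any of the cell pools studied. These 819 sites were 15.9% of all HIF-1α sites (95% Wilson interval 14.9% to 16.9%), and they are called HIF-1α-alone sites below. They were chosen by overlap of the lists of called windows on GRCh37 (hg19), so the absence of HIF-1β and HIF-2α windows is how they were defined and not a result. Of the other HIF-1α sites, 1780 (34.6%) shared bases with a HIF-2α window. The remainder had no HIF-2α window, and of these 1398 (27.2% of all) shared bases with a HIF-1β window already called in the control cells, 1107 (21.5%) with a HIF-1β window called in the HIF-1α re-expressing cells but not in the controls, and 43 with a HIF-1β window of the HIF-2α overexpressing cells only. All but the last of these groups serve as comparisons. All intervals given for shares are 95% Wilson intervals that cover counting error only.

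786-O is a cancer cell line of the kidney, derived from a clear cell carcinoma, that lacks functional VHL and full-length HIF-1α, so HIF-2α accumulates in normal oxygen. Pools of these cells were transduced with a lentivirus that also encodes EGFP and carries no further insert (VA, the control cells), wild-type HIF-1α (HIF-1α re-expression) or wild-type HIF-2α (HIF-2α overexpression), and all 3 pools were grown in normal medium. ChIP-seq gave 1 library each for HIF-1β and HIF-2α in every pool. For HIF-1α it gave 1 library, in the HIF-1α re-expressing cells only. The HIF-1α windows therefore could not be set against the same antiserum in control cells. The 7 lists hold 29309 windows of 2500 bp without a score or a signal. RNA-seq gave 3 libraries per pool with totals of 27852754 to 54287621 counts. The pools are infected populations of 1 cell line in which the transgene is driven by the vector, and no source used here says whether the RNA replicates were separate cultures, so p-values measure only the spread between these samples. Without a second ChIP library or a signal in the lists, a window that was not called cannot be told apart from a weak one, and the depth of the ChIP libraries is not known from them.

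HIF-1α and HIF-2α are the oxygen-regulated subunits of the hypoxia-inducible transcription factor. Each pairs with HIF-1β, also named ARNT, and the pair binds the hypoxia response element (HRE), whose core is ACGTG or GCGTG. VHL marks the α subunits for destruction when oxygen is present, so loss of VHL leaves them stable, and clear cell renal carcinoma is the tumour best known for this. HIF-1α is known to bind mostly at promoters, whereas HIF-2α is also found at distant enhancers, which often carry the AP-1 motif TGACTCA or TGAGTCA, bound by dimers of the JUN and FOS families.

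To show what lay under these windows, stretches of up to 300 bases around the middle of 5 HIF-1α-alone sites are printed from the + strand of GRCh37, 5′ to 3′. Bases in capitals are HRE cores or AP-1 motifs on either strand, and a core on the other strand reads CACGT or CACGC. They lay near genes whose RNA was among those that rose most (values below). The first 4 held HRE cores. The stretch at ICAM5 lay upstream of the start site and between genes, that at GPR155 just downstream of the start, and that at CDH13 in an intron. At AHNAK2 it lay upstream of the nearest start, in an intron of a longer transcript, and also held an AP-1 motif.
ICAM5 (chr19:10400058-10400357): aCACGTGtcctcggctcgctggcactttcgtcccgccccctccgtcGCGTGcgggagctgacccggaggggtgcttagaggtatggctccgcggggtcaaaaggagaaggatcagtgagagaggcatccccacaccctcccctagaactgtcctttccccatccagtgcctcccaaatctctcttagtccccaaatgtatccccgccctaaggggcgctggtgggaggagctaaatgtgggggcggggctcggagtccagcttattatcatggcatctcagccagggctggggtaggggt
GPR155 (chr2:175351505-175351600): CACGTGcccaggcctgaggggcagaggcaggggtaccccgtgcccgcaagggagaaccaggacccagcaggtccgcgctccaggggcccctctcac
AHNAK2 (chr14:105439560-105439859): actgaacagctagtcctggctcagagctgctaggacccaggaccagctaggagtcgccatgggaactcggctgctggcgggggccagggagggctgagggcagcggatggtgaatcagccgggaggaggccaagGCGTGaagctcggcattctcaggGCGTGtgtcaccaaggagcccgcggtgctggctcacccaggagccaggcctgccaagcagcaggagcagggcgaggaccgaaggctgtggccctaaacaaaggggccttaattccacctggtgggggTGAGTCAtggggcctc
CDH13 (chr16:82661392-82661691): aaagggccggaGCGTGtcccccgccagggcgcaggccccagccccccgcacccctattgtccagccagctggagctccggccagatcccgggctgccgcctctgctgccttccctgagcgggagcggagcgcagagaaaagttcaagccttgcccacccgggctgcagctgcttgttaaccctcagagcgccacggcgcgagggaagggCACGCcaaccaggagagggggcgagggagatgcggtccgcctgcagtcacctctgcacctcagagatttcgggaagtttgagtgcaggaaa

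The last site, in an intron a short way downstream of the start of NBEAL1, held neither an HRE core nor an AP-1 motif.
NBEAL1 (chr2:203879728-203880027): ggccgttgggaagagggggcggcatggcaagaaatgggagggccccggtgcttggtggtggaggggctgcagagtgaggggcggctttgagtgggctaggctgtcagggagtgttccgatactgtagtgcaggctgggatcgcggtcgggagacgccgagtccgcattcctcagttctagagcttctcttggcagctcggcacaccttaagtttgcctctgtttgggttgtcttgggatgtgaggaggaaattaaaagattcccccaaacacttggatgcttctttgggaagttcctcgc

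Few sites sat at the edge of the rule. Of the 819 sites, 5 had a window of another list within 100 bp, nearest to MIR5684 (25 bp), ENSG00000276744 (28 bp), CROCCP2 (75 bp), LINC00511 (80 bp) and CARD19 (83 bp), and 94 (11.5%) had 1 within 5 kb. Just outside the rule, the HIF-1α window at MAFK shared 48 bases with a HIF-1β window of the same cells and that at RP13-279N23.2 shared 63 bases with a HIF-1β window of the control cells. Only 10 of the 4328 other HIF-1α sites owed their place to an overlap of 500 bases or less. The list that removed most sites was HIF-1β in the HIF-1α re-expressing cells. Without it 1788 sites would have qualified, against 1137 without HIF-1β in the control cells and 824 to 879 without 1 of the other 4 lists.

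HIF-1α-alone sites lay mostly at promoters. The midpoints of 80.1% (77.2% to 82.7%) lay no more than 1 kb from an annotated transcription start and 88.9% (86.6% to 90.9%) within 5 kb, with a median distance of 177 bp. The share within 1 kb was close to the 80.5% of sites with HIF-1β already in the control cells, below the 95.6% of sites with newly called HIF-1β and above the 53.1% of sites with HIF-2α. Midpoints lay in the 5 kb downstream of the start at 49.0% and in the 5 kb upstream at 39.9%. By annotation 38.2% were in introns, 24.2% in UTRs, 8.91% in coding sequence and 20.4% between genes. The nearest gene was protein-coding at 79.4% (76.5% to 82.0%) and a long non-coding RNA at 15.8%, against 64.9% and 26.0% at sites with HIF-2α.

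Some lay near protein-coding starts on both strands. Sites with starts of different protein-coding genes on both strands within 1 kb of the midpoint are called divergent here. The order of these starts was not checked. Divergent sites numbered 124, 15.1% (12.8% to 17.8%), compared with 11.5% (9.95% to 13.3%) at sites with HIF-1β already in the control cells, 10.9% at sites with newly called HIF-1β and 4.72% at sites with HIF-2α. The interval overlapped those of both groups with HIF-1β and lay above that of the sites with HIF-2α. Only 6 HIF-1α-alone sites were more than 50 kb from a start site. The farthest 3 were at chr11:116062885-116065384, 126927 bp from snoU13, upstream of CUX1 (72689 bp), a homeobox transcription factor gene, and downstream of the start of NUFIP1 (70871 bp), where an AP-1 motif lay 15 bp from the midpoint.

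**Figure D1:**
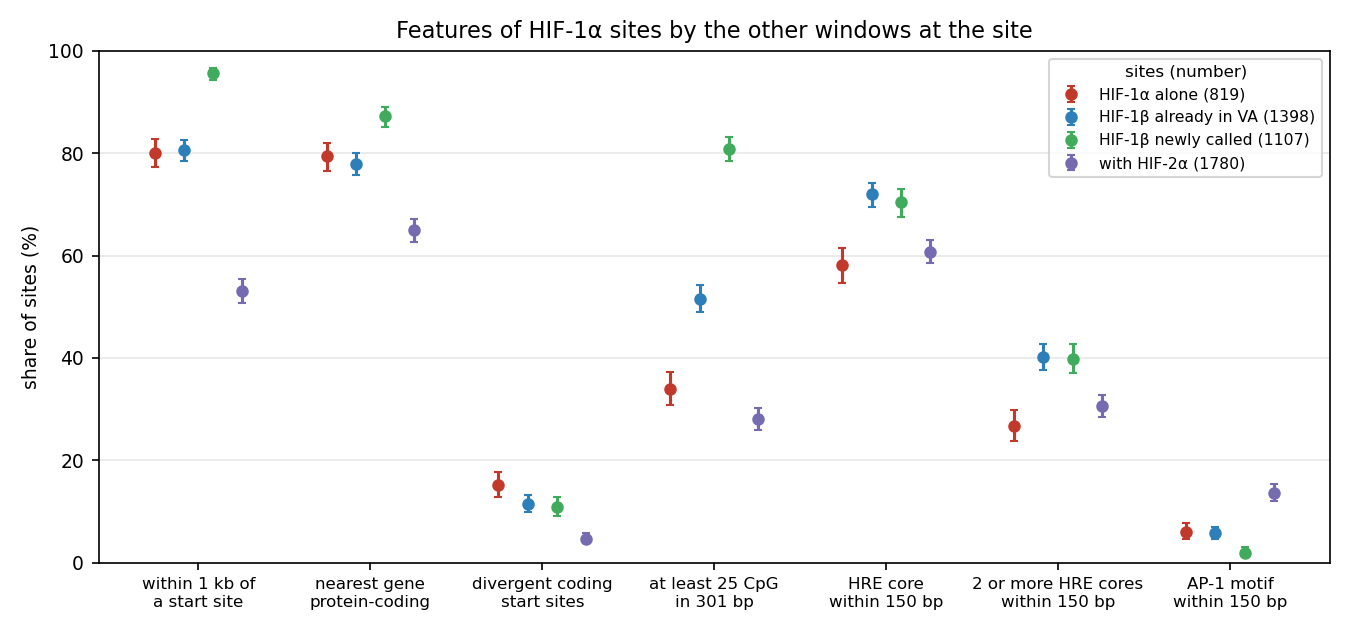
Share of HIF-1α sites (%) with each of 7 features, for the 819 HIF-1α-alone sites and the 3 groups of sites with HIF-1β or HIF-2α windows. Points are shares and bars are 95% Wilson intervals. The HIF-1α-alone sites matched the sites with HIF-1β already in the control cells in distance to start sites (80.1% and 80.5%) and had fewer HRE cores (58.1% and 72.0%).

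By share of sites, the HRE core was less frequent at HIF-1α-alone sites than at sites with HIF-1β. Per CpG it was less frequent than at only 1 of the 2 groups with HIF-1β (given below). Within 150 bp of the midpoint, ACGTG or GCGTG stood on either strand at 476 sites, 58.1% (54.7% to 61.5%). The share was 72.0% (69.5% to 74.3%) at sites with HIF-1β already in the control cells, 70.4% at sites with newly called HIF-1β and 60.8% at sites with HIF-2α. Windows of the same length at the start sites of all 20113 protein-coding genes held it at 53.9% (53.2% to 54.6%), and points 2 kb to either side of the HIF-1α-alone midpoints at 38.4%. Those points had fewer CpG, and their cores per CpG are given below. The share was thus near that of promoters in general, with a lower limit just over the promoters' upper one. Cores were also farther from the midpoint, with the nearest at a median of 117 bp against 79 bp and 80.5 bp at the sites with HIF-1β.

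Both forms of the core took part in the difference. ACGTG was present at 24.7% of HIF-1α-alone sites, 37.4% of sites with HIF-1β already in the control cells, 30.7% of those with newly called HIF-1β and 22.4% of promoters. GCGTG was present at 43.8%, 56.4%, 57.2% and 42.1% in the same order. At least 2 cores were found at 26.7% of the HIF-1α-alone sites and at 40.1% and 39.8% of the sites with HIF-1β. No core was found at 343 sites, 1 at 257 and 2 or more at 219, with 7 as the highest number. Cores were counted on each strand, so a single CACGTG counted as 2. It stood at 6.59% of HIF-1α-alone sites, 10.2% of sites with HIF-1β already in the control cells and 9.49% with newly called HIF-1β.

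CpG content differed between the groups and moves with a motif that holds a CpG. The sequence within 150 bp of HIF-1α-alone midpoints held a median of 20 CpG, against 25 with HIF-1β already in the control cells, 34 with newly called HIF-1β, 11 with HIF-2α and 21 at all promoters. Within each class of CpG number the share stayed below that of sites with HIF-1β already in the control cells, while it was above that of newly called HIF-1β sites in the class of 5 to 14 CpG. With 25 or more CpG, 64.4% of HIF-1α-alone sites held an HRE core against 78.9% of sites with HIF-1β already in the control cells, 73.2% with newly called HIF-1β, 74.5% with HIF-2α and 68.1% of promoters. With 15 to 24 CpG the shares were 60%, 72.7%, 64.8%, 69.7% and 61.8%, and with 5 to 14 CpG 56.2%, 63.0%, 49.4%, 62.3% and 47.1%. In the 2 classes of higher CpG, HIF-1α-alone sites were therefore below promoters by value, and in the lower class above them. Counted per 100 CpG in that stretch, HIF-1α-alone sites had 5.17 cores, below the 6.36 at sites with HIF-1β already in the control cells and the 7.19 at sites with HIF-2α, but above the 4.39 at newly called HIF-1β sites and the 4.71 of promoters. At the points 2 kb to either side, HIF-1α-alone sites had 10.2 cores per 100 CpG. There the value was 9.83 with HIF-1β already in the control cells, 10.1 with newly called HIF-1β and 9.68 with HIF-2α. Per CpG, cores were thus less frequent at the midpoints than beside them in each of these groups. These differences per CpG were not tested.

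**Figure D2:**
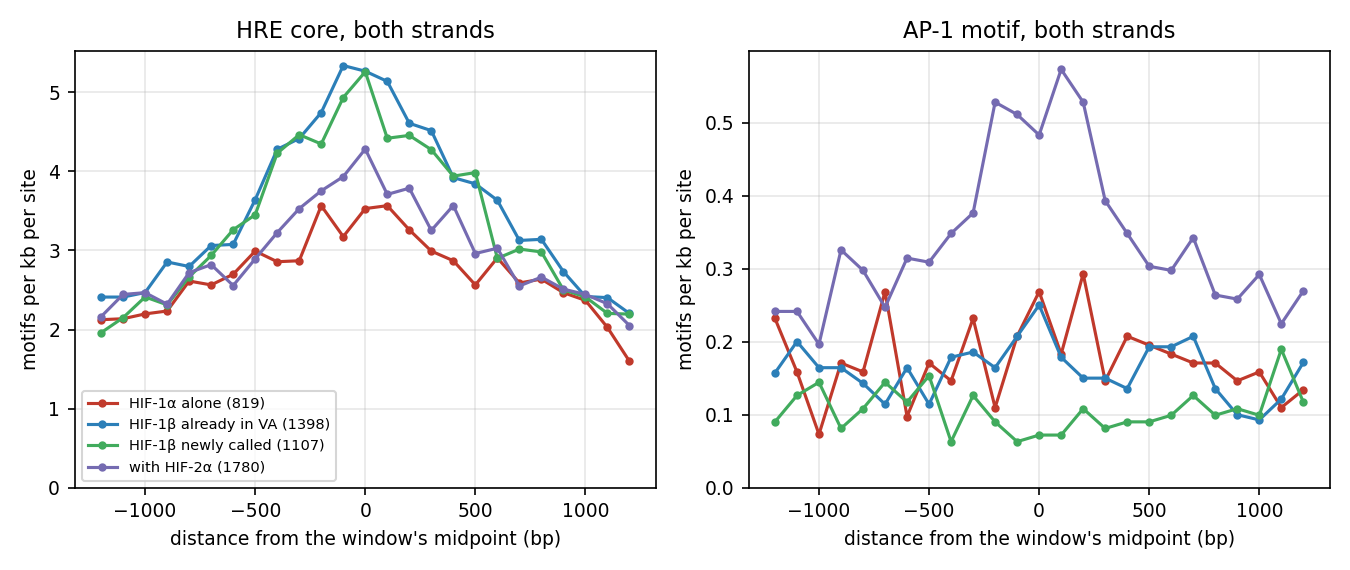
Number of HRE cores (left) and AP-1 motifs (right) per kb and site, on both strands, in bins of 100 bp by distance from the midpoint of the window (bp), for the HIF-1α-alone sites and the 3 comparison groups. The line of HIF-1α-alone sites is the lowest of the 4 for the HRE core at the midpoint, with 3.53 cores per kb against 5.26 at sites with HIF-1β already in the control cells.

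The AP-1 motif was rare. It stood within 150 bp of the midpoint at 49 HIF-1α-alone sites, 5.98% (4.55% to 7.82%), compared with 5.72% and 1.99% at the groups with HIF-1β, 13.7% at sites with HIF-2α and 3.92% of promoters. By number, 22 of the 49 sites lay within 1 kb of a start site and 19 over 5 kb from one. The share was higher in the distant class. Of the 91 HIF-1α-alone sites over 5 kb from a start site, 20.9% (13.8% to 30.3%) held it, against 3.35% of those within 1 kb. In the same distant class it was found at 16.8% of sites with HIF-1β already in the control cells and at 19.5% of sites with HIF-2α. Neither motif was found at 323 HIF-1α-alone sites and both at 29.

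Other promoter motifs were counted in the same stretch, on both strands. The E-box CACGTG, which contains ACGTG and is bound by USF and other bHLH factors, stood at 6.59% of HIF-1α-alone sites and 7.78% of promoters. The ETS motif CCGGAA was found at 22.7% and 19.9%, the GC box GGGCGG of Sp1-type factors at 53.8% and 54.1%, and the CCAAT box of NF-Y, searched as CCAAT, at 23.3% and 33.7%. The CCAAT box was also below promoters in the other groups, at 24.03% with HIF-1β already in the control cells, 17.8% with newly called HIF-1β and 21.7% with HIF-2α. The GC box separated the groups more, with 57.9%, 80.04% and 39.9% in that order. A match is a run of letters and not a bound factor.

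Sequence that occurs in many copies was found at some sites of each group. At 37 HIF-1α-alone sites, 4.52% (3.30% to 6.16%), at least 20% of the 25-base words in that stretch occurred 10 or more times in the genome. The share was 3.93% at sites with HIF-1β already in the control cells, 1.26% (0.755% to 2.11%) at newly called HIF-1β sites, whose interval lay below that of HIF-1α-alone sites, 6.18% at sites with HIF-2α and 2.69% of 20094 promoters. Of the genes described below, AP1M2, EIF6 and DDX39A had such a HIF-1α-alone site. The words that occurred 10 or more times were 64.6% at AP1M2, 25.3% at EIF6 and 24.5% at DDX39A. By chromosome, HIF-1α-alone sites made up 25.1% of the 350 HIF-1α sites of chromosome 19 (88 sites) and 22.7% of the 264 of chromosome 11 (60 sites), compared with 15.9% genome-wide. The share was 28.1% on chromosome X (9 of 32) and 24.1% on chromosome 15 (27 of 112). It was 9.96% on chromosome 10 and 9.43% on chromosome 18. Chromosome 19 is the most gene-dense human chromosome and holds many of the zinc finger genes described below.

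The pools were checked by the RNA of the transgenes. HIF1A had 30.4, 36.7 and 152 CPM, the counts scaled to the size of each library, in the VA libraries 1 to 3, 171, 1681 and 472 after HIF-1α re-expression and 15.3, 30.3 and 17.5 after HIF-2α overexpression. EPAS1, which encodes HIF-2α, averaged 281 CPM in VA, 533 after HIF-1α re-expression and 1689 after HIF-2α overexpression. Its HIF-2α libraries 1 to 3 had 946, 3243 and 880 CPM, against 456, 224 and 162 in VA. The rise of EPAS1 after HIF-2α overexpression did not pass the threshold (edgeR with the replicate number as a block, adjusted p = 0.0690). HIF1A was thus highest in its own pool, with a wide spread within it and 1 VA library close to the lowest re-expressing one. The study reports that 786-O cells make truncated and fused HIF1A transcripts. Counts per gene do not separate these from RNA of the full-length transgene. ARNT, which encodes HIF-1β, averaged 38.1, 51.3 and 45.5 CPM in the 3 pools and did not pass the test. All 9 renal epithelial markers were present in every library, the lowest value being 8.53 CPM for PAX2, while of the fibroblast, endothelial and leukocyte markers LUM reached 10.4 CPM, COL1A1 7.58 CPM, CD3E 0 and the others stayed under 1 CPM.

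The genes nearest to HIF-1α-alone sites were expressed at much the same level as those nearest other HIF-1α sites. The 819 sites had 807 nearest genes, of which 646 were in the count table and 613 passed the filter on low counts. In the VA libraries the 646 genes had a median of 7.59 CPM per kb of exonic length, against 6.89 and 6.81 for genes nearest sites with HIF-1β, 8.97 for genes nearest sites with HIF-2α and 0.612 for all genes. After HIF-1α re-expression and HIF-2α overexpression the median level was 7.17 and 7.26 CPM per kb. In these bulk samples fewer cells of a type and less RNA per cell cannot be told apart.

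Re-expression of HIF-1α was compared with VA to see whether genes next to these sites changed. In the edgeR quasi-likelihood fit with the pool as the only term, 0 of the 613 genes passed an adjusted p of 0.05 in either direction, and of the 14225 tested genes 0.0% were called higher and 0.0% lower. With an unadjusted p below 0.05 there were 44 genes higher (7.18%; 11.1% of all tested genes) and 70 lower (11.4%; 8.23% of all). DESeq2 called 10 higher (1.62% of the 617 it tested; 3.38% of all) and 11 lower (1.78%; 1.63% of all). The libraries with the same replicate number varied together, and with the replicate number as a block edgeR called 28 of the 613 genes higher (4.57%) and 26 lower (4.24%). Over all tested genes that fit called 5.41% higher and 2.55% lower. In that fit the share called higher was a little below the background by value and the share called lower was above it. By unadjusted p and by DESeq2 the share called higher was further below the background relative to its size. The share called lower was above it by unadjusted p but near it by DESeq2.

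The genes nearest the other groups of HIF-1α sites were counted in the same way, and the difference between groups was not tested. In the fit with the block, 102 genes nearest sites with HIF-1β already in the control cells were called higher (9.86%) and 23 lower (2.22%). For newly called HIF-1β the counts were 70 (7.42%) and 9 (0.953%), and for sites with HIF-2α 81 (8.21%) and 19 (1.93%). Of the 10818 tested genes nearest no HIF-1α site, 500 (4.62%) were called higher and 288 (2.66%) lower. Genes of HIF-1α-alone sites had a median log2 fold change of -0.09, and the value was 0.10, 0.05 and 0.09 for the 3 comparison groups, with 0.04 for all tested genes. By replicate pair the median for HIF-1α-alone genes was -0.01, -0.10 and -0.10, and for all genes 0.02, 0.00 and 0.07. HIF-2α overexpression against VA gave HIF-1α-alone genes the same median of -0.09 with the block, against -0.01 for all tested genes. In the direct contrast of the 2 infected pools their median was -0.02, against 0.01. The lower median was thus not particular to HIF-1α re-expression.

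The number of calls depended on single libraries. With the block, calls numbered 51 higher and 61 lower without VA replicate 1, 7 and 1 without HIF-1α replicate 1, 21 and 15 without HIF-2α replicate 2, and 14 and 6 without HIF-2α replicate 3. Without HIF-1α replicate 2 or 3, HIF-2α replicate 1, or VA replicate 2 or 3, 0 were called higher, and 0 or 1 lower. The share of all tested genes called in these fits is not given, so these counts cannot be set against a background. Counted without a model, the CPM values of the 3 re-expressing libraries were all above the 3 VA libraries for 52 of the 613 genes (8.48%; 12.9% of all tested genes) and all below for 86 (14.03%; 11.2% of all tested genes).

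**Figure D3:**
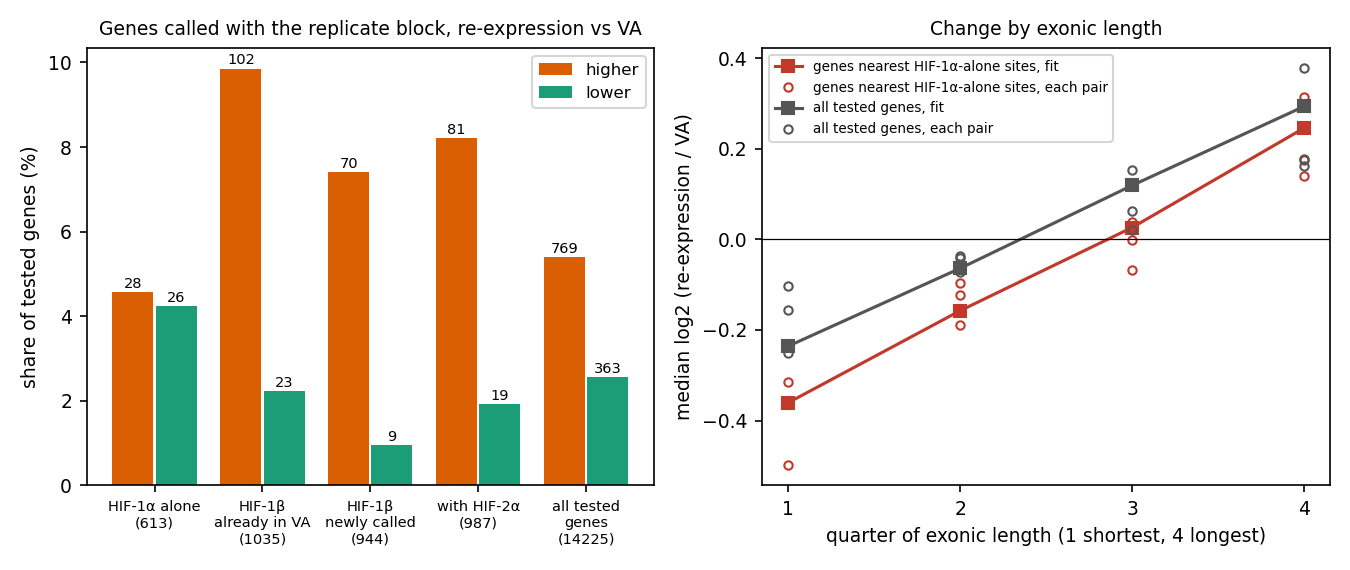
Left, share of tested genes (%) called higher or lower by edgeR with the replicate block after HIF-1α re-expression against VA, for genes nearest each group of HIF-1α sites, with the number called above each bar and the number tested below. Right, median log2 ratio of HIF-1α re-expression to VA by class of exonic length (4 classes of equal size, shortest to longest), for genes nearest HIF-1α-alone sites and for all tested genes, as fitted (squares) and in each replicate pair (circles). The HIF-1α-alone genes were the site group with almost as many falls (26) as rises (28), and in both gene sets the median rose with exonic length.

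Values are given for 11 genes with large rises. NBEAL1, a BEACH-domain protein, had 7.01, 6.43 and 2.06 CPM in VA and 22.6, 30.9 and 21.3 after HIF-1α re-expression. Its groups did not overlap, and it rose by a log2 fold change of 2.46 ± 0.43 (SE; edgeR with the block, adjusted p = 0.0315). GPR155, a lysosomal membrane protein that senses cholesterol, had 5.87, 5.18 and 6.62 CPM in VA and 11, 64.7 and 20.9 after re-expression. The groups were apart, but the rise of 2.17 ± 0.49 (adjusted p = 0.0407 by edgeR) became 1.36 without HIF-1α replicate 2, the highest library. ICAM5, a neuronal adhesion molecule, had 0.931, 1.37 and 5.60 CPM in VA and 2.43, 6.15 and 32.6 after re-expression. Replicate 3 was the highest library in each pool, so the groups overlapped although each pair rose, and the log2 fold change was 2.09 ± 0.31 (edgeR, adjusted p = 0.0293). All 3 sites lay within 1 kb of the start, and ICAM5 and GPR155 are those shown above with the CACGTG form of the core.

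PTPRS, a receptor tyrosine phosphatase, had 7.06, 5.92 and 24.9 CPM in VA and 34.8, 22.3 and 70.4 after re-expression. Each pair rose, the lowest re-expressing library stayed below the highest VA library, and the log2 fold change was 1.91 ± 0.29 (edgeR with the block, adjusted p = 0.0293). ASS1, argininosuccinate synthase of the urea cycle and of arginine synthesis, had 33.5, 9.47 and 48.8 CPM in VA and 68.5, 24.9 and 121 after re-expression. The groups overlapped and each pair rose, by 1.24 ± 0.21 (edgeR, adjusted p = 0.0315). In the HIF-2α overexpressing cells ASS1 had 14.2, 5.34 and 14.8 CPM, below VA in each pair. CDH13, a GPI-anchored cadherin, had 258, 45.4 and 35.5 CPM in VA and 361, 110 and 132 after re-expression. Here replicate 1 was high in every pool, and the pairs rose by 1.23 ± 0.25 (edgeR, adjusted p = 0.0358). AHNAK2, a very large scaffold-type protein and the only 1 of the 11 whose site was over 1 kb from its start, had 146, 70.8 and 40.0 CPM in VA and 213, 175 and 162 after re-expression. Its groups were apart (1.25 ± 0.30, edgeR adjusted p = 0.0427).

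The other 4 of these 11 rises were PRDM8, a chromatin regulator with a PR domain (log2 fold change 1.95), ZNF808, a zinc finger protein (1.56), CELSR3, an atypical cadherin (1.44), and CLMP, an adhesion molecule of cell junctions (1.20). Their adjusted p-values in the edgeR fit with the block were 0.0333 to 0.0493. The libraries of the groups did not overlap for 6 of the 11, namely NBEAL1, GPR155, PRDM8, ZNF808, CELSR3 and AHNAK2. An HRE core stood within 150 bp of the midpoint at 5 of the 11 sites, those of GPR155, ICAM5, ZNF808, AHNAK2 and CDH13.

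Values are also given for the 8 genes with the largest falls. AP1M2, a subunit of the clathrin adaptor complex of epithelial cells and not of the AP-1 transcription factor, had 30.7, 58.4 and 30.1 CPM in VA and 9.92, 15.9 and 9.17 after HIF-1α re-expression. The groups were well apart, with a log2 fold change of -1.74 ± 0.17 (edgeR with the block, adjusted p = 0.0264). DDX39A, an RNA helicase of mRNA export, had 94.5, 145 and 133 CPM in VA and 67.5, 48.0 and 32.0 after re-expression. Every re-expressing library was below every VA library (-1.36 ± 0.32, edgeR adjusted p = 0.0427). VAMP8, a SNARE protein of vesicle fusion, had 90.5, 75.5 and 72.8 CPM in VA and 40.3, 46.3 and 37 after re-expression. The groups were apart (-0.94 ± 0.19, edgeR adjusted p = 0.0358). SNRNP35, a protein of the minor spliceosome, had 7.79, 11.3 and 20.4 CPM in VA and 5.39, 5.64 and 8.28 after re-expression. It was the only 1 of the 8 whose groups overlapped (-0.96 ± 0.23, edgeR adjusted p = 0.0427).

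The other 4 were DCTPP1, which hydrolyses dCTP (log2 fold change -1.15), EXOSC8 of the RNA exosome (-1.01), DPM2 of dolichol-phosphate mannose synthesis (-0.996) and RABEPK, an effector of Rab9 (-0.99). All 8 sites lay within 1 kb of the start, and 4 held an HRE core, those of AP1M2, DCTPP1, EXOSC8 and SNRNP35. The sites of AP1M2 and DDX39A were among those with repeated sequence given above. Each of these 19 genes kept its direction in all 24 fits with other settings or without 1 library, but the size of 9 moved by over 1.5 times. Nearest to 0, CDH13 was at 0.10 without HIF-1α replicate 1. ICAM5 was at 0.70, PTPRS at 1.18, ASS1 at 0.61 and EXOSC8 at -0.63 without HIF-1α replicate 3. AHNAK2 was at 0.76, CLMP at 0.73 and SNRNP35 at -0.57 without VA replicate 3, all in fits without the block, and GPR155 is given above. Farthest from 0, CDH13 reached 2.31 without VA replicate 1 and ICAM5 3.57 without VA replicate 3. Their calls were less stable, since in the 9 fits with the block that left out 1 library each gene was called in 1 to 5, and without the block their adjusted p-values were 0.149 to 0.619.

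**Figure D4:**
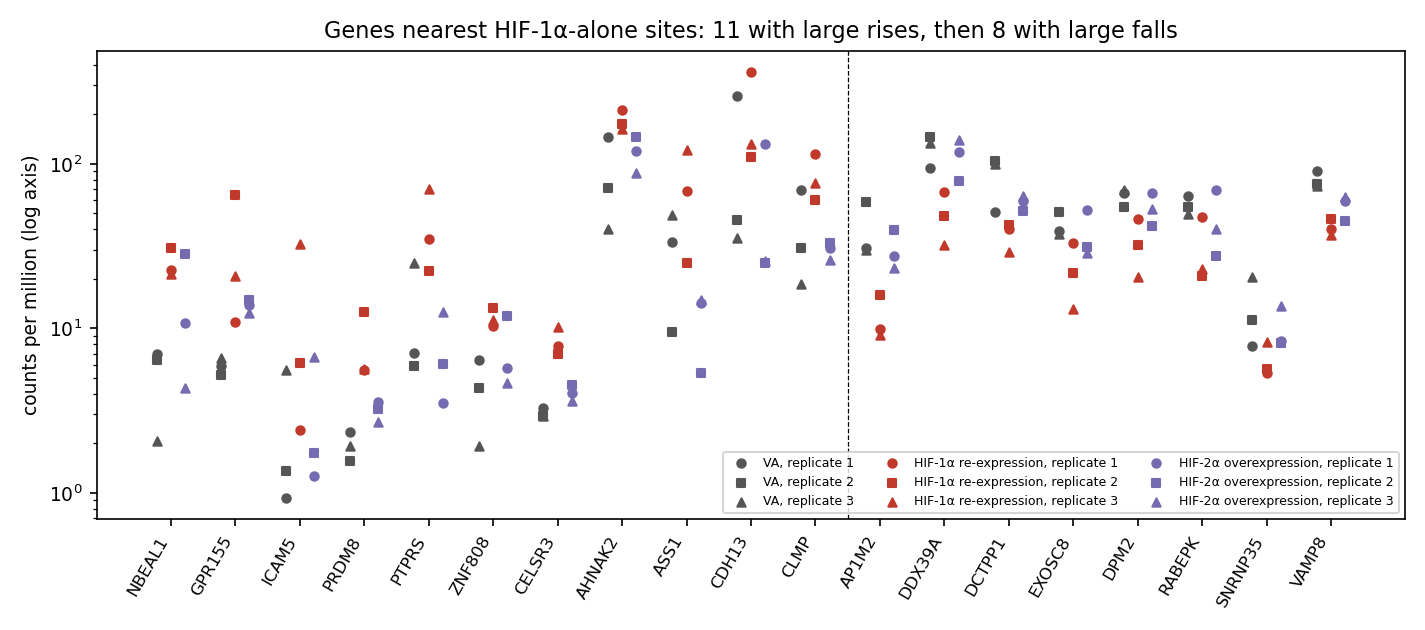
CPM (log axis) of 11 genes nearest HIF-1α-alone sites with large rises and, right of the broken line, the 8 with the largest falls after HIF-1α re-expression, in each of the 9 libraries. Colours mark the pool and shapes the replicate number. Of the rises, ICAM5, PTPRS, ASS1, CDH13 and CLMP show overlap between the VA and HIF-1α libraries, whereas VAMP8 and AP1M2 fell with no overlap.

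Ribosomal protein genes stood next to several of these sites. Of the 29 genes with the prefix RPL or RPS that were nearest any HIF-1α site, 14 were nearest a HIF-1α-alone site (2.17% of the 646 nearest genes with counts), 4 a site with HIF-1β already in the control cells (0.370% of nearest genes), 5 a site with newly called HIF-1β (0.515%) and 5 a site with HIF-2α (0.474%). No test was made of these shares. They were RPL5, RPL18, RPL27, RPL27A, RPL36, RPL7L1, RPLP0P2, RPS6, RPS7, RPS10, RPS15, RPS20, RPS28 and RPS29. The site was within 1 kb of the start for 13 and held an HRE core for 11. RPS6, of the small subunit, had 1429, 1062 and 1942 CPM in VA and 1429, 855 and 2388 after re-expression, so that the groups overlapped. None of the 14 passed the test in either direction. RPL7L1, which has the prefix but is not a ribosomal protein, had the highest log2 fold change (0.66, adjusted p = 0.0590 by edgeR with the block), and RPLP0P2 is a pseudogene. The other 12 had values of -0.49 to 0.00, 11 of them below 0, with a smallest adjusted p of 0.141 by edgeR. In the whole list of 109 tested genes 1 was called higher and 5 lower, and the median was -0.28, against -0.31 for the 14. After HIF-2α overexpression the medians were also below 0, at -0.38 for the list and -0.40 for the 14. Ribosomal protein genes have many processed pseudogenes that can share reads with them, so these values are uncertain.

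Mitochondrial ribosomal protein genes were also found there. Of 16 nearest any HIF-1α site, 6 were nearest a HIF-1α-alone site (MRPL13, MRPL17, MRPL28, MRPL51, MRPS23 and MRPS24), and all 6 sites held an HRE core. The 6 were 0.929% of the 646 nearest genes with counts, against 0.447% for all HIF-1α sites, a difference that was not tested. MRPL51 had 122, 123 and 132 CPM in VA and 93.7, 67.0 and 85.5 after re-expression, and these groups did not overlap. All 6 had log2 fold changes below 0 (-0.67 to -0.07) and none passed the test (smallest adjusted p by edgeR 0.0561). In the list as a whole 12 of 79 were called lower and none higher, with a median of -0.56 against -0.63 for the 6. After HIF-2α overexpression the medians were also below 0, at -0.40 for this list and -0.45 for the 6. Of the genes of translation initiation factors, EIF6, which keeps the ribosomal subunits apart, had 305, 217 and 280 CPM in VA and 191, 149 and 117 after re-expression. It fell by 0.82 ± 0.21 on the log2 scale (edgeR with the block, adjusted p = 0.0461), while EIF3G did not pass the test.

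Zinc finger genes had a median change above 0. Of 88 genes with the prefix ZNF nearest any HIF-1α site, 26 were nearest a HIF-1α-alone site, 14 of them on chromosome 19, and 18 of the sites held an HRE core. The 26 were 4.02% of the 646 nearest genes with counts, against 2.46% for all HIF-1α sites, a difference that was not tested. Among the 25 tested, ZNF331, ZNF37BP and ZNF808 were called higher and none lower, and 19 had a log2 fold change above 0. Of all tested genes 5.41% were called higher, 2.55% lower, and 52.7% had a log2 fold change above 0. ZNF808 had 6.47, 4.35 and 1.93 CPM in VA and 10.3, 13.3 and 11.2 after re-expression. Its groups did not overlap. The whole list of 466 tested genes had 34 called higher and 1 lower, with a median of 0.32 against 0.34 for the 25.

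Of a list of 67 known HIF target genes 55 (82.1%) were nearest some HIF-1α site, and of these VEGFA (1.49% of the list) was nearest a HIF-1α-alone site. Of all 22020 annotated genes with counts, 16.3% were nearest some HIF-1α site and 2.93% a HIF-1α-alone site, so 1 of 67 was not far from that share. In the group with newly called HIF-1β, 3 of the 67 were nearest a site, with 10 where HIF-1β was already in the control cells and 43 with HIF-2α. VEGFA, the angiogenic growth factor, was also nearest another HIF-1α site. The midpoint of its HIF-1α-alone window lay 3867 bp from the midpoint of the closest window of another list. No HRE core stood within 150 bp of it. It had 745, 288 and 399 CPM in VA and 895, 825 and 1706 after HIF-1α re-expression. Every re-expressing library was above every VA library, and with the block the log2 fold change was 1.24 ± 0.41 (edgeR, adjusted p = 0.0816), or 1.88 and past the threshold without VA replicate 1. No gene was nearest a HIF-1α-alone site from the lists of AP-1 subunits (6 genes nearest another HIF-1α site), bHLH-PAS factors (6), immediate early genes (8) and heat shock genes (4). These lists hold 7, 19, 18 and 13 genes, too few to expect a gene in each at a share of 2.93%.

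Calls were also counted by what the sites and genes were like. Of genes with an HRE core at any of their HIF-1α-alone sites, 12 of 365 were called higher (3.29%) and 15 lower (4.11%), and of those without one 16 of 248 (6.45%) and 11 (4.44%), against 5.41% and 2.55% of all tested genes. Counted by the site closest to the start alone, 11 of the 28 genes called higher had a core. With at least 25 CpG the counts were 5 and 9 of 245, and with fewer 23 and 17 of 368. Of genes nearest divergent sites 1 of 117 was called higher and 8 lower, with a median log2 fold change of -0.16. The values were close to this at newly called HIF-1β sites (1 and 5 of 116, median -0.13), and with HIF-1β already in the control cells the median was -0.15 (11 and 9 of 155). By level, the share called higher was 6.19% under 10 CPM, 4.86% at 10 to 30, 3.52% at 30 to 100 and 4.83% at 100 CPM or more, against 6.96%, 5.90%, 4.35% and 3.49% of all tested genes. The share called lower was 1.03%, 2.78%, 7.05% and 3.45%, against 0.70%, 2.09%, 4.07% and 4.18%. None of the differences between these classes was tested.

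Exonic length moved with the change, in HIF-1α-alone genes and in all genes alike. It is the merged length of all annotated exons of a gene and not the length of a transcript. The genes called higher had a median exonic length of 10.0 kb and those called lower 3.33 kb, compared with 5.28 kb for all 613 (all tested genes: 8.69, 3.23 and 5.31 kb). From the shortest to the longest of 4 classes of equal size, the median log2 fold change of the HIF-1α-alone genes was -0.36, -0.16, 0.03 and 0.25, and of all tested genes -0.24, -0.06, 0.12 and 0.29. After HIF-2α overexpression it was -0.29, -0.13, -0.02 and 0.14 for the HIF-1α-alone genes. Length was examined after it was seen which genes were called, and its part in the calls was not tested.

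HIF-2α overexpression was compared with the same 3 VA libraries. Of the 613 genes, 0 passed in either direction by edgeR without the block (0.0% of all tested genes higher and 0.0% lower) and 0 with it (0.112% and 0.155%). With an unadjusted p below 0.05 there were 11 higher (1.79%; 3.35% of all tested genes) and 17 lower (2.77%; 2.54% of all) without the block, and 32 (5.22%; 7.69%) and 63 (10.3%; 6.84%) with it. DESeq2 called 0 higher and 1 lower (0.164%), against 0.251% and 0.203% of all genes. The smallest adjusted p with the block was 0.0506. A p that misses the threshold does not show that these genes were the same in both pools.

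In the direct contrast of HIF-1α re-expression with HIF-2α overexpression, edgeR without the block called 0 of the 613 genes (0.0281% of all tested genes higher and 0.0211% lower). With an unadjusted p below 0.05 there were 34 higher (5.55%; 9.04% of all tested genes) and 23 lower (3.75%; 4.6% of all). DESeq2 called 15 higher (2.43%; 3.43% of all) and 7 lower (1.13%; 0.994% of all). With the block, 18 genes were higher in the HIF-1α pool (2.94%; 4.54% of all tested genes) and 5 lower (0.816%; 1.38% of all). Without 1 library these counts were 5 to 20 and 1 to 7. ASS1 and PTPRS, described above, had the largest differences among the 19 named rises and falls. Both shares were below the background by value.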

How the data were processed

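ChIP-seq windows and RNA-seq counts of 786-O cells were used. Per the labels and the study's methods, the authors trimmed reads (Trim Galore 0.3.3), aligned ChIP reads to GRCh37 with BWA 0.7.5a-r405, removed duplicates with Picard 1.106 and blacklisted regions with bedtools 2.17.0, and kept the peaks found by T-PIC as well as by MACS that passed a filter on reads. They deposited coordinates only, 1 list per library, without replicates. For RNA, they deposited unnormalized counts for each gene symbol, which the authors made with TopHat2 2.0.8b, Bowtie 1.0.0 and HTSeq 0.5.4p3. The library kit keeps strand but the strand setting of the counting is not given in the sources used here, so overlapping genes on opposite strands may not be told apart, and reads shared with near-identical copies were dropped as not unique.

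Windows were compared by at least 1 shared base. Nearest start sites came from GENCODE lifted to GRCh37 (64449 genes, 221300 start sites). Of the count table's symbols 20654 matched the annotation directly, 1366 by an older symbol and 1421 not at all. Motifs were searched as letters on both strands within 150 bp of the midpoint (the study scanned the same distance about peak summits with weight matrices), and repeated sequence by counting each 25-base word in the genome (Python 3.11.15, pandas 2.3.3, numpy 2.4.6, pysam 0.24.0, matplotlib 3.10.9). With no more than 1 ChIP library per antiserum and pool, no p-value was computed for windows.

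Counts of all 9 libraries entered 1 edgeR 4.0.16 fit (R 4.3.3) with TMM factors, its filter on low counts (14225 genes kept), the quasi-likelihood test and Benjamini-Hochberg adjusted p-values with a threshold of 0.05. Library totals were 27852754 to 54287621 counts, so the spread between replicates and not counting error limited all but the lowest genes. The main fit had the pool as its only term. Once pool means were removed, the 9 library pairs with the same replicate number correlated at 0.348 to 0.652 across genes and the 18 pairs with other numbers at -0.478 to 0.0281. The numbers in the labels therefore pair the libraries, and values with the replicate number as a block are given beside the results. DESeq2 1.42.0, other size factors, no filter, other gene sets and fits without each library were alternatives. The scripts were tested on simulated data.

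The sites and gene lists were chosen with earlier results of these data known. Genes were named by a rule: the 12 largest rises and 8 largest falls among genes within 5 kb of a HIF-1α-alone site that passed in the fit with the block, reached 5 CPM on average in the higher pool and moved the same way in all 3 pairs (25 rises and 24 falls qualified), list genes nearest a site, and HIF1A, EPAS1, ARNT and ARNT2. Of the rises taken by this rule 11 are given, and 1, with some site sequences, is not reported here. ARNT2 averaged 15.3, 16.5 and 16.9 CPM in VA, HIF-1α and HIF-2α cells. Replication-dependent histone genes (HIST1H2BE and HIST2H2AC) were nearest a site but too low to test, and of the proteasome genes only PSMD12 was nearest a site (log2 fold change -0.35, not called).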

Additional observations from a re-analysis of the deposited data

Results flagged for a closer look

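For 6 of the 19 named genes nearest HIF-1α-alone sites, the response to HIF-1α differed from that to HIF-2α in the direct contrast of the infected pools (edgeR with the replicate block, Benjamini-Hochberg adjusted p). ASS1 differed most clearly, with a log2 fold change of HIF-1α re-expression over HIF-2α overexpression of 2.50 ± 0.22 (SE, adjusted p = 0.00115). It was higher than VA in the HIF-1α cells and below VA in the HIF-2α cells, where the log2 fold change of -1.26 just missed the threshold (adjusted p = 0.0562). PTPRS differed by 2.54 ± 0.29 (adjusted p = 0.00348 by edgeR), CDH13 by 2.02 ± 0.25 (adjusted p = 0.00418), ICAM5 by 1.72 ± 0.30 (adjusted p = 0.0150) and CLMP by 1.41 ± 0.31 (adjusted p = 0.0330).

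AP1M2 was the only named fall among them, at -1.38 ± 0.17 (edgeR, adjusted p = 0.00402). Its CPM in the HIF-2α cells, 27.6, 39.7 and 23.2, overlapped those of VA. In the edgeR fit without the block none of the 6 differences passed the threshold. Since the genes were named for their change after HIF-1α re-expression and both contrasts use the same re-expressing libraries, these differences are not independent of that choice.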

How the results depend on the processing

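The number of HIF-1α-alone sites was 1370 when windows had to have midpoints within 500 bp to count as shared and 1788 without the HIF-1β list of the re-expressing cells. Other rules gave 725 to 1137. The share within 5 kb of a start site was 81.4% with protein-coding starts only, and that of protein-coding nearest genes was 69.0% with 1 start site per gene. The HRE core share was 44.3% within 100 bp, 76.2% within 250 bp, 99.5% in the whole window, 31.9% at sites with 0 to 4 CpG and 64.4% with at least 25. That of the AP-1 motif was 3.91%, 9.52% and 33.5% in the same 3 windows.

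For genes called after HIF-1α re-expression, against 0 without the block, the replicate block gave 28 higher and 26 lower, DESeq2 gave 10 and 11, and DESeq2 with the block 53 and 77. The block was also used with other gene sets, a combination chosen after seeing the data. For all genes within 10 kb the counts were 38 and 39 of 972 (3.91% and 4.01%). For nearest genes within 5 kb they were 26 and 24 of 579 (4.49% and 4.15%). For genes nearest no other HIF-1α site they were 25 and 25 of 554 (4.51% each). Of all tested genes 5.41% were called higher and 2.55% lower. After HIF-2α overexpression DESeq2 called 1 lower, DESeq2 with the block 8 higher and 7 lower, and edgeR with the block 2 lower within 10 kb (0.206%; 0.155% of all tested genes). In the direct contrast the block gave 18 and 5, DESeq2 15 and 7, DESeq2 with the block 37 and 25, and no filter on low counts 1 higher. With the block the 3 other gene sets gave 29 and 9 (2.98% and 0.926%), 15 and 4 (2.59% and 0.691%), and 15 and 4 (2.71% and 0.722%). Of all tested genes 4.54% were called higher and 1.38% lower in that contrast. Leaving out each library in turn gave 0 calls in every contrast without the block. With the replicate block it gave, after HIF-1α re-expression, 0 to 51 higher (51 without VA replicate 1, 7 without HIF-1α replicate 1, 21 and 14 without HIF-2α replicate 2 and 3) and 0 to 61 lower (61, 1, 15 and 6 in the same order). After HIF-2α overexpression the range was 0 to 2 in each direction. In the direct contrast it was 5 to 20 higher, with 12, 8 and 9 without HIF-1α replicates 1 to 3, 9, 14 and 5 without HIF-2α replicates 1 to 3 and 20, 12 and 15 without VA replicates 1 to 3, and 1 to 7 lower. No direction was reversed. For fits without 1 library, without the filter or by DESeq2 with the block, the share of all tested genes is not given. Those counts therefore cannot be set against a background. The block changed no other call. The deposited windows hold no signal, so depth could not be weighed for the sites.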
